A study of Mus musculus with 10 samples.

Results

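Deubiquitinating enzymes are the proteases that take ubiquitin off proteins or cut ubiquitin chains. The genes described here were taken by symbol from the deposited table of mouse germ cell expression: Usp followed by a digit, Otud, Otub and Josd genes, and Uchl3, Uchl5 and Bap1. This gave 63 of the 15507 genes listed, of which 48 were Usp genes, 8 Otud genes, 2 Otub genes, 2 Josd genes, 2 Uchl genes and Bap1. All 63 were among the 15389 genes that passed the filter on low counts. One of them, Usp6nl, shares the name only, since it encodes a Rab GTPase-activating protein. Usp39 and Usp50 belong to the family by sequence but are regarded as lacking an active catalytic site.

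Ubiquitin is joined to lysines of a target protein by a cascade of activating, conjugating and ligating enzymes. Deubiquitinating enzymes reverse that step, and so rescue proteins from the proteasome, recycle ubiquitin, edit chains that carry signals and remove single ubiquitins from histones. In male germ cells histones carry ubiquitin at meiosis and again in late spermatids, where transition proteins and then protamines replace them.

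The libraries came from germ cells isolated from the testes of 5 wild-type (WT) mice and 5 homozygous GRTH knock-in (KI) mice aged 45 days. GRTH, also called DDX25, is a testicular RNA helicase of the DEAD-box family. In KI mice the gene is a human GRTH copy bearing a missense mutation found in infertile men. These mice lack the phosphorylated form of the protein, and their round spermatids do not elongate. The fraction was not sorted by stage, so it held spermatogonia, spermatocytes and spermatids in proportions that can differ between genotypes.

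Values are normalized counts, that is, reads of a gene divided by the size factor of its library. Reads on genes per library were 13323024 to 16422347 in WT and 12722086 to 15500582 in KI. Mouse Ddx25 was 7615, 7782, 5198, 11101 and 9458 in WT libraries 1 to 5 and 146, 194, 161, 2.88 and 1.84 in KI libraries 1 to 5, so every library matched its genotype, and the residual level was lower in KI libraries 4 and 5 than in KI libraries 1 to 3. Libraries 1 to 3 stood apart from libraries 4 and 5 in both genotypes, on a second principal component that held 9.75% of the variance beside 74.1% on the first, which separated the genotypes. The summed level of 8 elongating spermatid markers was 235316 to 421429 in WT and 35135 to 68599 in KI, and all 8 were called lower. Leydig cell markers summed to 10291 to 18066 in WT and 14779 to 25692 in KI, which overlap (3 of 7 called higher). Macrophage markers summed to 732 to 946 and 1061 to 1445, without overlap (4 of 8 called higher). Myoid cell markers summed to 163 to 235 and 212 to 266, which overlap. Of the 5 myoid markers tested, 2 were called higher and 3 were fitted lower (median log2 fold change -0.07). Sums also overlapped for Sertoli cell markers (5957 to 9832 and 6115 to 10491), spermatocyte markers (16242 to 21668 and 16069 to 19155) and spermatogonial markers (1342 to 1782 and 1478 to 1773). Round spermatid markers summed to 18483 to 21067 in WT and 11272 to 17516 in KI, without overlap. All 8 were fitted lower (median log2 fold change -0.50), 3 had a limma adjusted p under 0.05 and 1 was called lower. No marker listed was at 0 in any library. In bulk RNA, fewer cells of a type and less RNA per cell cannot be told apart, and this holds for every difference given here.

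To ask which deubiquitinating enzyme genes differ in the mutant, KI was compared with WT by limma on log2(normalized count + 1), and a gene was called when its Benjamini-Hochberg adjusted p was under 0.05 and its fitted fold change reached 1.5. Of the 63 genes, 4 were called lower in KI (6.35%; 8.22% of all genes tested) and 3 higher (4.76%; 6.13% of all genes tested). The falls were those of Otub2, Usp44, Usp50 and Usp12, and the rises those of Otud6a, Usp11 and Usp51. By adjusted p alone, 9 were lower (13.3% of all genes tested) and 5 higher (9.65% of all genes tested). The KI libraries all lay below the WT libraries for 6 of the 63 (10.9% of all genes tested) and all above them for 4 (6.8% of all genes tested). Scaling to library totals, under which the median of all genes moved to 0.25, turned the split over all genes from 944 higher and 1265 lower to 2145 and 789, and that of the members to 5 and 3. The median log2 fold change of the members was -0.01, beside 0.03 over all genes tested. Each of these shares of the members was below or near the background share.

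**Figure D1:**
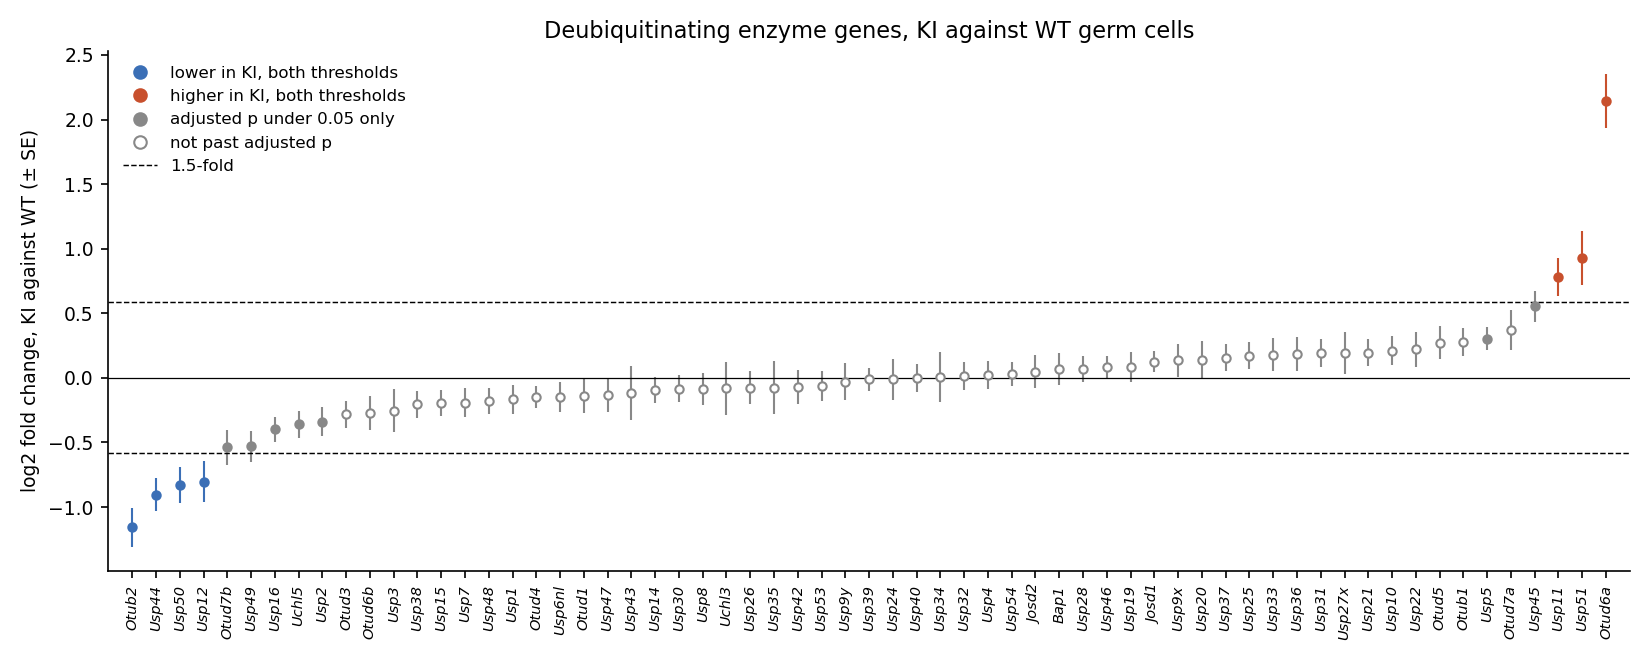
Log2 fold change of KI against WT (vertical axis, log2 units) for each of the 63 genes in rank order, with bars of 1 SE from limma on 5 against 5 libraries; filled points passed the adjusted p threshold, blue and red points also passed the 1.5-fold lines (dashed). The 4 falls run from -1.16 for Otub2 to -0.80 for Usp12, the 3 rises from 0.78 for Usp11 to 2.14 for Otud6a, and 49 genes that passed neither threshold lie between -0.28 and 0.37.

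Otub2 encodes an OTU-family cysteine protease, and the gene lies at chr12:103376894-103406350 on the plus strand of mm10. Its normalized counts were 5222, 5799, 6382, 3584 and 3829 in WT libraries 1 to 5 and 2193, 2450, 2232, 2274 and 1762 in KI libraries 1 to 5. The groups did not overlap, and WT libraries 4 and 5 were the lowest of their genotype. The WT mean of 4963 ± 1222 (SD, n = 5) was 2.27 times the KI mean of 2182 ± 255, and the log2 fold change was -1.16 (SE 0.15; limma, adjusted p = 5.72e-05). Within libraries 1 to 3 the log2 fold change was -1.34, and within libraries 4 and 5 it was -0.89. Otub2 was the fourth most abundant of the 63 genes per kilobase of exon in WT, and the other Otub gene, Otub1, which binds and restrains ubiquitin-conjugating enzymes, did not pass the test (log2 fold change 0.28).

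Usp44, at chr10:93831555-93860210 on the plus strand, encodes a protease that acts on the cell cycle protein Cdc20 and on ubiquitinated H2B. It measured 4084, 4714, 4485, 3073 and 3045 in WT libraries 1 to 5 and 1971, 2194, 1914, 2113 and 2020 in KI libraries 1 to 5. The KI libraries lay close together, all below the lowest WT library, while WT libraries fell into a higher trio and a lower pair. The means were 3880 ± 783 and 2042 ± 112 (SD, n = 5 each), which differ by -0.90 on the log2 scale (SE 0.12, adjusted p by limma 8.56e-05). Libraries 1 to 3 gave -1.13, and libraries 4 and 5 gave -0.57, short of 1.5-fold.

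Usp50 lies at chr2:126761050-126783460 on the minus strand. Its normalized counts were 1830, 2140, 2079, 1593 and 1638 in WT libraries 1 to 5 and 1162, 1215, 1184, 971 and 738 in KI libraries 1 to 5. There was no overlap, and the means of 1856 ± 249 and 1054 ± 201 (SD, n = 5 each) differed by -0.83 on the log2 scale (SE 0.14; limma, adjusted p = 0.000445). Usp50 was the one of the 4 falling genes whose change was larger in libraries 4 and 5 (-0.93) than in libraries 1 to 3 (-0.76). The neighbouring gene on the opposite strand, Usp8, ends 1735 bases from the end of Usp50. Usp8 encodes the endosomal protease that trims ubiquitin from receptors on their way to the lysosome, and its means of 7306 ± 843 in WT and 6946 ± 1217 in KI overlapped (log2 fold change -0.08, SE 0.12, limma adjusted p = 0.689).

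Usp12, at chr5:146734812-146794956 on the minus strand, encodes a protease that is active when bound to the WD-repeat protein Wdr48. It measured 1774, 1738, 1968, 1011 and 1204 in WT libraries 1 to 5 and 892, 891, 868, 898 and 732 in KI libraries 1 to 5. WT library 4, the lowest of its genotype, was close to the highest KI library, and the groups did not overlap. The means were 1539 ± 409 and 856 ± 70.2 (SD, n = 5 each), and the log2 fold change was -0.80 (SE 0.16, limma adjusted p = 0.00176). Libraries 1 to 3 gave -1.04. Libraries 4 and 5 gave -0.44 with a limma adjusted p of 0.102, so the call was lost there. Usp46, the closest relative of Usp12, did not pass the test. The levels of all 4 falling genes moved in the same direction as the round and elongating spermatid markers. By set, Otub2, Usp44 and Usp12 fell more in libraries 1 to 3, and Usp50 in libraries 4 and 5. The round spermatid markers had a median log2 fold change of -0.30 in libraries 1 to 3 and -0.78 in libraries 4 and 5. For the elongating spermatid markers it was -2.46 and -2.42. The part of those markers in the falls was not tested.

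**Figure D2:**
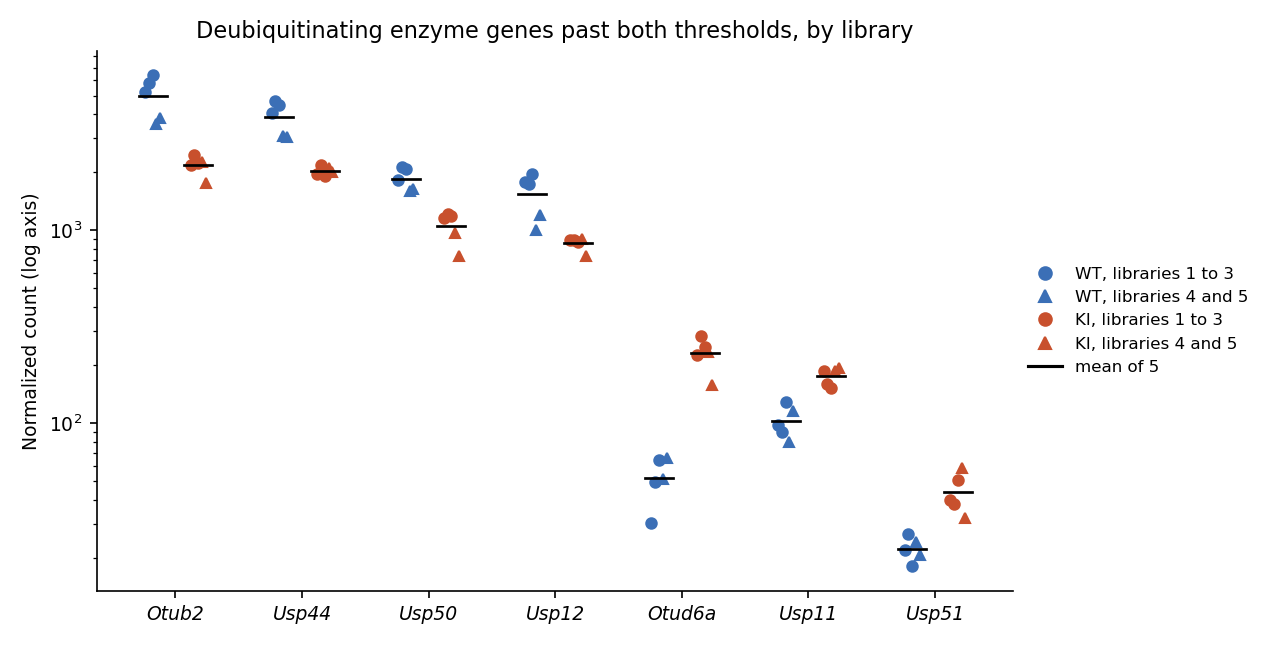
Normalized counts (vertical log axis) of the 7 genes past both thresholds in each WT (blue) and KI (red) library, with circles for libraries 1 to 3, triangles for libraries 4 and 5, and a black line at the mean of 5. The genotypes do not overlap for any of the 7, and the WT triangles lie below the WT circles for Otub2, Usp44, Usp50 and Usp12.

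The 3 genes that rose were all on the X chromosome, and none was above the median WT level per kilobase of all genes. Otud6a, at chrX:100428908-100429885 on the plus strand, encodes an OTU-family protease. GENCODE vM21 gives the gene a single exon of 873 bases, shorter than the span of these coordinates, and its level per kilobase uses that length. Its normalized counts were 30.3, 49.7, 64.0, 51.2 and 65.9 in WT libraries 1 to 5 and 226, 284, 249, 235 and 157 in KI libraries 1 to 5. The lowest KI library was above every WT library. The KI mean of 230 ± 46.4 (SD, n = 5) was 4.41 times the WT mean of 52.2 ± 14.2, or 2.14 on the log2 scale (SE 0.21, adjusted p by limma 3.19e-06), from 29 to 70 reads in a WT library and 171 to 327 in a KI library. The rise was 2.43 in libraries 1 to 3 and 1.71 in the others.

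Usp11, at chrX:20703909-20720539 on the plus strand, encodes a nuclear protease linked to repair of DNA breaks. It measured 98.3, 90.2, 128, 80.2 and 116 in WT libraries 1 to 5 and 187, 159, 152, 186 and 192 in KI libraries 1 to 5, without overlap. The means were 103 ± 19.3 and 175 ± 18.1 (SD, n = 5 each), a rise of 0.78 on the log2 scale (SE 0.14, adjusted p by limma 0.00104). Libraries 1 to 3 gave 0.66 and libraries 4 and 5 gave 0.96.

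Usp51, at chrX:153006469-153009459 on the plus strand, encodes a histone deubiquitinase related to Usp22. Its normalized counts were 22.0, 26.6, 18.1, 24.1 and 20.7 in WT libraries 1 to 5 and 39.8, 38.2, 50.4, 58.7 and 32.2 in KI libraries 1 to 5, from 15 to 24 reads in a WT library and 35 to 61 in a KI library. The groups did not overlap, and the means of 22.3 ± 3.23 and 43.9 ± 10.6 (SD, n = 5 each) gave a rise of 0.93 on the log2 scale (SE 0.21, adjusted p by limma 0.00442). In libraries 4 and 5 alone the change was 0.93 with a limma adjusted p of 0.151. Leydig cell and macrophage markers moved in the same direction as the 3 rising genes, and their part in the rises was not tested.

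The other X-linked members were Otud5, Usp26, Usp27x and Usp9x, and none passed the test. Otud5, whose product restrains interferon signalling, was 319 ± 61.6 in WT and 381 ± 29.3 in KI (SD, n = 5 each). Usp26, a testis gene, was 215 ± 38.6 and 202 ± 12.0 and Usp27x was 68.8 ± 9.52 and 78.9 ± 12.2. Usp9x, a large protease of epithelial and neural development, was 1664 ± 214 and 1843 ± 347, and its Y-linked copy Usp9y was 165 ± 28.7 and 161 ± 24.3. The X-linked members had a median log2 fold change of 0.27, with 3 of 7 called higher. Over the 650 X-linked genes tested, 13.7% were called higher and 7.23% lower, and the median was 0.17. That X-wide median came mostly from 1 library set: it reached 0.26 for libraries 1 to 3, where 187 genes were fitted lower. For libraries 4 and 5 it was only 0.05, with 299 fitted lower. The X-linked members differed less by set, with medians of 0.42 and 0.37 respectively. Reads shared between Usp9x and Usp9y, or among Usp22, Usp27x and Usp51, could be divided between the copies by the counting, so the split between these genes is uncertain.

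Of the 14 genes past the adjusted p threshold, 7 did not reach 1.5-fold, and 5 of them were lower in KI. Otud7b, an OTU protease of lysine-11 chains, had means of 2506 ± 301 in WT and 1748 ± 373 in KI (SD, n = 5 each) and no overlap, and its log2 value fell by 0.54. Usp49, an H2B deubiquitinase, was 875 ± 131 and 604 ± 75.7 (log2 fold change -0.53), but 51.2% of its exonic bases lie under another gene model on the same strand, Gm20517. Usp16, an H2A deubiquitinase, was 2518 ± 304 and 1902 ± 139 (-0.40). Uchl5, a protease bound to the proteasome, was 682 ± 92.9 and 529 ± 40.7 (-0.36), again with no overlap. Usp2, an abundant testis transcript whose product also acts in the circadian clock, was 10981 ± 582 and 8760 ± 1433 (-0.34). It was 7515 to 8039 in KI libraries 1 to 3, below every WT library, and 10383 and 10246 in KI libraries 4 and 5, close to the lowest WT library at 10273. The falls of Usp16, Uchl5 and Usp2 were -0.55, -0.52 and -0.49 in libraries 1 to 3, and in libraries 4 and 5 the values were -0.17, -0.11 and -0.11, where limma gave adjusted p of 0.503, 0.694 and 0.686. Otud7b (-0.65 and -0.36) and Usp49 (-0.59 and -0.44) likewise passed the threshold in libraries 1 to 3 and not in libraries 4 and 5 (adjusted p = 0.130 and 0.0932 by limma). The first set holds 3 libraries per genotype and the second 2, so passing in 1 set alone does not show that the sets differ. A limma test of the difference between sets gave adjusted p of 0.210, 0.241 and 0.190 for Usp16, Uchl5 and Usp2. It gave 0.331 for Otud7b and 0.707 for Usp49.

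The remaining pair was higher in KI. Usp45, which acts in the repair of crosslinked DNA, was 323 to 541 in WT and 621 to 652 in KI, without overlap, a rise of 0.55 on the log2 scale (SE 0.12, adjusted p by limma 0.00343). Usp5, which takes apart unanchored chains, was 997 ± 109 and 1227 ± 30.9 (log2 fold change 0.30, SE 0.09; adjusted p by limma 0.0202). Usp45 passed both thresholds in libraries 4 and 5 alone (log2 fold change 0.83) and not in libraries 1 to 3 (0.37).

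Histone deubiquitinases are of interest in this tissue because histones are exchanged as spermatids elongate. Over a list of 12 of them, which also holds Usp27x and Usp36, 1 was called higher (Usp51), 1 lower (Usp44), or 8.33% each way beside 6.13% and 8.22% of all genes tested, and Usp49 and Usp16 passed the adjusted p threshold alone. The median was -0.00. The rest had overlapping groups: Usp3 was 439 ± 95.0 in WT and 368 ± 73.2 in KI, Usp7, which also stabilises p53 and its ligase, was 5461 ± 461 and 4815 ± 752, and Usp21 was 454 ± 41.9 and 521 ± 55.7. Usp22, the subunit of the SAGA coactivator, was 331 ± 56.0 and 384 ± 52.4. Usp42 was 2685 ± 283 and 2587 ± 560, and Bap1, the H2A deubiquitinase of the Polycomb system, was 3445 ± 608 and 3587 ± 444 (SD, n = 5 each).

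Usp14 and Uchl5 are the deubiquitinases that bind the proteasome reversibly. Usp14 was 543, 539, 473, 463 and 458 in WT libraries 1 to 5 and 554, 455, 455, 442 and 423 in KI libraries 1 to 5. These overlapped (log2 fold change -0.09, SE 0.10, limma adjusted p = 0.578), and 26.0% of the exonic bases of Usp14 are shared with Thoc1 on the other strand, which the counting is not stated to separate.

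The 49 genes that did not pass the adjusted p threshold had log2 fold changes from -0.28 to 0.37, with 25 below 0 and 24 above, and adjusted p from 0.0664 to 0.996. Beside the sex-linked, histone and proteasome genes named above, they were Josd1, Josd2, Otub1, Otud1, Otud3, Otud4, Otud6b, Otud7a, Uchl3, Usp1, Usp10, Usp15, Usp19, Usp20, Usp24, Usp25, Usp28, Usp30, Usp31, Usp32, Usp33, Usp34, Usp35, Usp36, Usp37, Usp38, Usp39, Usp4, Usp40, Usp43, Usp46, Usp47, Usp48, Usp53, Usp54, Usp6nl and Usp8. Otud3 was the lowest of these and Otud7a the highest. With the library number as a block, 5 of the 49 (Otub1, Otud3, Otud6b, Otud7a and Usp3) passed the adjusted p threshold, all short of 1.5-fold. With the block 19 of the 63 passed it (30.2%, beside 32.0% of all genes tested).

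In WT, levels per kilobase of exon spanned a wide range across the 63 genes, with a median of 125 normalized counts per kilobase beside 63.0 over 15152 genes with an exon length, and 45 of the 63 lay above that median. Usp1, the protease of the Fanconi anaemia and PCNA pathways, was highest at 3026 ± 217 per kilobase (SD, n = 5), followed by Usp2 at 2279 ± 121, Usp8 at 1743 ± 201, Otub2 at 1343 ± 331 and Usp44 at 962 ± 194. Usp51 at 10.1, Usp35 at 9.93 and Usp43 at 8.96 were the lowest. Of the 62 neighbouring pairs in this order, 59 overlapped between libraries, and the pairs of Usp1 with Usp2 and Usp2 with Usp8 did not. In KI the level of Otub2 was 591 per kilobase and that of Usp44 507, while Otud6a rose from 59.8 to 264.

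The median genotype difference of these genes had opposite signs in the library sets. The median over the 63 was -0.12 in libraries 1 to 3, with 40 genes lower in KI, and 0.12 in libraries 4 and 5, with 22 lower. The medians of all genes tested were 0.02 in both. There were 24 genes lower in KI in libraries 1 to 3 and higher in libraries 4 and 5, and 6 the other way. A test of the genotype-by-set interaction in limma, added after the values were seen, called 0 of the 63 genes at an adjusted p under 0.05 (0.247% of all genes tested), with a lowest adjusted p of 0.088 for Usp44, while 20 of the 63 had an unadjusted p under 0.05, or 31.7% beside 16.1% of all genes tested.

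Against their own set's WT mean, the members' median was -0.06, -0.17 and -0.17 in KI libraries 1, 2 and 3 and 0.10 and 0.12 in KI libraries 4 and 5. Of the 27 genes with exons of at least 7000 bases, a length chosen after the values were seen, the effect was higher in libraries 4 and 5 for 25 (92.6%, beside 68.1% of all genes of that length), and of the 36 shorter genes for 23 (63.9%, beside 45.8%). Across the 63 genes Pearson's r of log2 exon length with the difference was 0.42 and Spearman's rho 0.31, and across 15152 genes they were 0.26 and 0.28. Genes share libraries and are not independent, so these are descriptions. The part of length, RNA quality or library preparation in the difference was not tested.

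**Figure D3:**
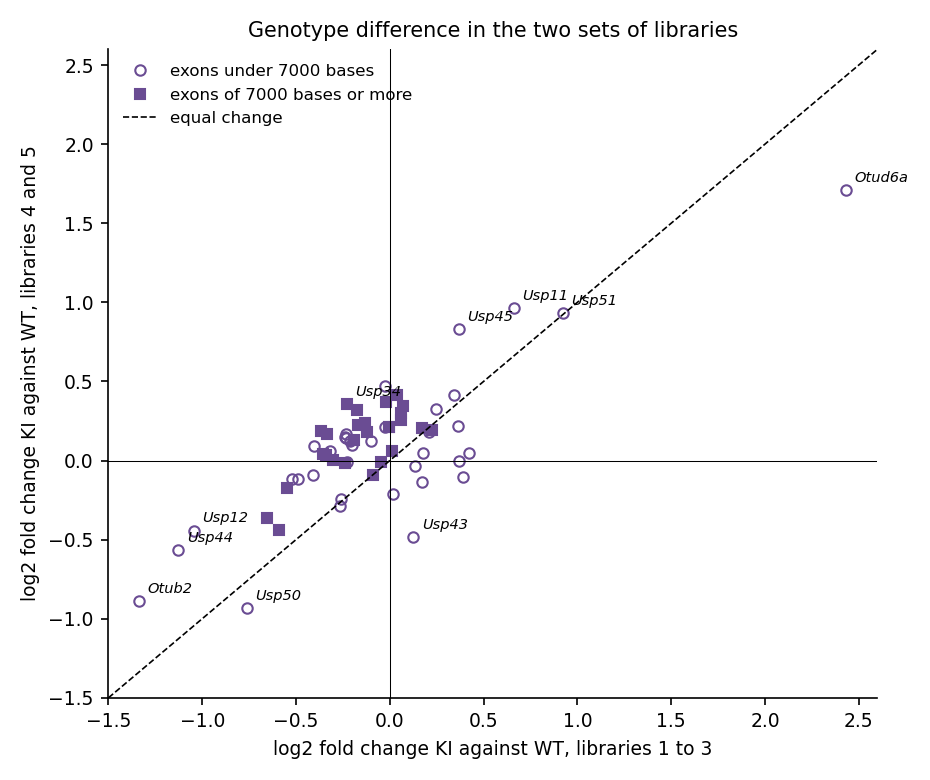
Log2 fold change of KI against WT in libraries 1 to 3 (horizontal axis) and in libraries 4 and 5 (vertical axis) for the 63 genes, with filled squares for exons of at least 7000 bases, open circles for shorter ones and a dashed line of equal change. Of the 27 squares, 25 lie above the line, while Otub2, Usp44, Usp50, Usp12, Otud6a, Usp11 and Usp51 keep their direction in both sets.

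The promoters of the genes that changed are shown because 4 of the 6 genes printed have at least 1 start poor in CG dinucleotides, Otub2 at 1 of its 3. Of the 63 genes, 50 had RefSeq promoters, 54 in all, covering 250 bases before and 50 after the start. The 150 bases before the start are printed from RefSeq on GRCm38.p6, 5′ to 3′ on the strand of the gene, with CG dinucleotides in capitals, for Otub2 (chr12:103376744-103376893, plus strand), Otud6a (chrX:100428758-100428907, plus), Usp11 (chrX:20703759-20703908, plus), Usp12 (chr5:146794957-146795106, minus), Usp50 (chr2:126783461-126783610, minus) and Usp51 (chrX:153006319-153006468, plus).
Otub2: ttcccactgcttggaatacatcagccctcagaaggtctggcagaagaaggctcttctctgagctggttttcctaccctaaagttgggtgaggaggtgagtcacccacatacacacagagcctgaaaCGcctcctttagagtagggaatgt
Otud6a: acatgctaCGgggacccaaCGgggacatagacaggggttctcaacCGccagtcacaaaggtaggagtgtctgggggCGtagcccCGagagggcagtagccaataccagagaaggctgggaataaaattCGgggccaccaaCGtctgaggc
Usp11: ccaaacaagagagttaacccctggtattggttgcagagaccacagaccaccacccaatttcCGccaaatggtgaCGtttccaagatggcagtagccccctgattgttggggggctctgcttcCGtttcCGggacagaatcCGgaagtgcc
Usp12: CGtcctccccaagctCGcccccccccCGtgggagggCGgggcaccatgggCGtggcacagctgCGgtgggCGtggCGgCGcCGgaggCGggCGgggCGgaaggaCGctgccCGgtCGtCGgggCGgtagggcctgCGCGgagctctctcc
Usp50: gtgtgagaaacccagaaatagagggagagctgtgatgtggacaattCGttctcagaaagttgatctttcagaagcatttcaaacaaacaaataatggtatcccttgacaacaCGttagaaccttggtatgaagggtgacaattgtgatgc
Usp51: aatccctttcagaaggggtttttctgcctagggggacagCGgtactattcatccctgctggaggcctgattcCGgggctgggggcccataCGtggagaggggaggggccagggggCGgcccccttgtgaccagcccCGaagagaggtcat

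Usp50 had 2 CG dinucleotides in its 300-base window and the Otub2 window printed here 3, against 37 for Usp12. The ratio of observed to expected CG was 0.124 for Usp50, the lowest of the 54 promoters, 0.137 for this Otub2 start (0.604 for each of its other windows), 0.282 for Usp51, 0.416 for Usp11, 0.656 for Otud6a and 0.872 for Usp12. Usp44 has no promoter entry. The first 20 bases after the start were found in 1 GENCODE vM21 transcript of the gene for Usp11, Usp12, Usp50 and Usp51. For Otud6a and the Otub2 start printed here they were found in 0, and the other Otub2 starts were not searched. The 8 promoters of the other 6 genes past both thresholds had a median ratio of 0.510, beside 0.883 for the 46 promoters of the other 44 members and 0.714 for the 15294 promoters of all genes tested. A ratio under 0.5 was found in 4 of the 8 promoters (Usp50, Otub2, Usp51 and Usp11), 4 of the 46 (Usp54, Usp6nl, Usp26 and Usp10) and 30.4% of those of all genes tested. Otub2 gave 3 of the 8, and 2 of its windows start 1 base apart, so they hold nearly the same sequence. The members were split on the measured outcome, so this is a description with no test.

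**Figure D4:**
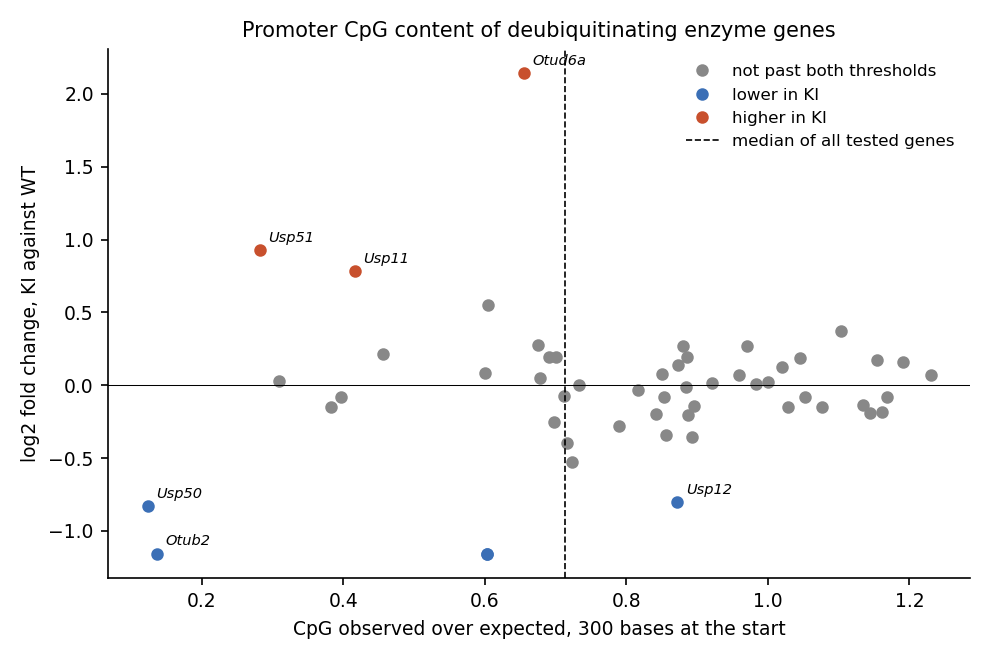
Log2 fold change of KI against WT (vertical axis) against the observed over expected CG ratio of the 300 bases at the start (horizontal axis) for 54 promoters of 50 members, with genes past both thresholds in blue (lower) and red (higher). The dashed line is the median of all genes tested, 0.714, and of the coloured points that of Usp12 lies to its right.

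Promoters were also searched on both strands for TGACGTCA, the cyclic AMP response element bound in spermatids by the activator CREM, and for its half-site TGACG, which the full element contains. The full element was in 1 of the 54 promoters, that of Otud7a (1.85%, beside 2.91% of the promoters of all genes tested), and the half-site in 22 (40.7%, beside 28.6%). The half-site holds a CG, and the members' promoters had a median GC content of 64%, beside 59.7% for all genes tested. Their median ratio of observed to expected CG was 0.855, beside 0.714. The part of base composition in the half-site share was not tested. A match is a run of letters in this window and no evidence of binding.

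Other genes of the pathway were described by lists. Of 20 other genes of deubiquitinase families tested, 2 were called lower (10%, beside 8.22% of all genes tested) and 1 higher (5%, beside 6.13%). The adjusted p threshold was not passed by 16 of them, and the median was -0.00. Yod1, an OTU protease of protein quality control at the endoplasmic reticulum, fell from 794 ± 143 to 379 ± 31.9 (log2 fold change -1.05, SE 0.12). Atxn3, the Josephin protease whose repeat expansion causes an ataxia, fell from 1530 ± 193 to 942 ± 129 (-0.70). Mpnd, a JAMM-domain gene, rose from 43.6 ± 5.12 to 83.3 ± 20.9 (0.89).

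Of 22 cofactors of deubiquitinases, Asxl3, a Bap1 partner, was the only one called (4.55% higher, beside 6.13% of all genes tested). It rose from 34.9 ± 10.0 to 72.6 ± 18.0 (log2 fold change 1.04) with overlapping libraries, and the median of the list was -0.01. Atxn7l3 (0.39) and Adrm1 (-0.34) passed the adjusted p threshold without reaching 1.5-fold, and 19 cofactors did not pass it. A list of 10 genes held Uspl1 and the Senp and Desi families, known mainly as proteases of the related modifier SUMO. Of these, Desi1 passed the adjusted p threshold without reaching 1.5-fold (-0.49), and 9 did not pass it.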

How the data were processed

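RNA of germ cells from 5 WT and 5 KI mice was sequenced as 1 library per mouse from oligo(dT)-selected RNA, and groups and library numbers were taken from the sample labels. The authors trimmed adapters, aligned paired reads to mm10 with STAR, counted genes with the Partek E/M model on RefSeq genes and, as the values show, scaled each library by a DESeq2 size factor. The deposited values are this signal, called normalized counts here. Within each library 100% of values under 5000 reads gave whole reads (within 0.05), so reads were recovered. Every column of values was assigned to a library. A floor of 3 reads was 2.61 to 3.62 normalized counts. Whether the counting used strand is not given in the sources used here. The age comes from the methods of the study, not the labels.

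The genes, lists, roles and tests were chosen with earlier results of these data known. limma (version 3.58.1, R 4.3.3) with a variance trend was fitted to log2(value + 1) for 15389 genes passing filterByExpr of edgeR (version 4.0.16), with Benjamini-Hochberg adjustment over all of them. Genes past both thresholds are given with every library, those past the adjusted p only with means or fold change, and the others by range, except sex-linked, histone and proteasome-bound members. Alternatives were other scalings, pseudocounts, filters and thresholds, edgeR's quasi-likelihood test and DESeq2 (version 1.42.0) on recovered reads, a replicate block, a library-set term, each set alone and each library left out. The scripts were tested on simulated data. Some genes of the pathway are not reported here.

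Libraries with the same number in both genotypes deviated together from their group means (r = 0.31, 0.10, 0.28, 0.22 and 0.46 for numbers 1 to 5). Pairs of different number within the same library set had a mean r of 0.13, so part of it goes with the set. Number 2 lay below that mean and the others above it. The number was treated as pairing the libraries, a pairing that comes from the values and not from a stated litter or day. The calls reported come from the fit without the block. Exon lengths are unions of GENCODE vM21 exons, and promoters come from RefSeq. Nothing in the labels says whether the mice were littermates, and p-values measure the spread between these libraries.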

Additional observations from a re-analysis of the deposited data

Results flagged for a closer look

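In 5 of 126 groups of 5 libraries (63 genes in each genotype), 1 library lay apart by Dixon's criterion, and chance flags about 1 in 20 groups. Usp12 was 732 in KI library 5, below the 868 to 898 of the other KI libraries. Otud6b was 357 in WT library 4, below 474 to 518 in the others, and Usp5 was 1189 in WT library 4, above 915 to 973. Usp14 was 554 in KI library 1, above 423 to 455, and Usp46 was 508 in KI library 3, below 534 to 544.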

How the results depend on the processing

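Of 25 alternatives, Otub2 and Otud6a were called in all, and 52 of the 56 members not called were called in none. Scaling to library totals called 5 members higher (Otud7a and Usp45 added) and dropped Usp12 (log2 fold change -0.57). Over all genes it called 2145 higher and 789 lower, beside 944 and 1265, with a median of 0.25 over all genes and 0.22 over members. Upper quartile scaling moved the medians to 0.12 and 0.08 and called 1296 genes higher and 1025 lower. A fold of at least 2 left 1 member higher (Otud6a), 1 lower (Otub2) and 969 genes called in all. Libraries 4 and 5 alone called 3 members higher (Otud6a, Usp11 and Usp45) and left 2 lower (Otub2 and Usp50), beside 472 and 1087 of all genes (3.07% and 7.06%). Libraries 1 to 3 alone called 3 higher and 6 lower (Otud7b and Usp49 added), beside 1101 and 1337. The replicate block kept 3 members higher and 4 lower, with 2410 genes called over all, and changed no call of a member. Leaving out 1 library at a time gave 3 to 4 members higher, 4 to 5 lower and 1971 to 2303 genes called in all, the added members being Usp45 without WT library 1, Usp49 without WT library 4 or KI library 2, and Otud7b without KI library 4 or 5. Usp51 was not tested where a mean of at least 50 normalized counts was required. Depth limits Usp51 most: its 15 to 24 reads in a WT library carry a counting error that the log2(value + 1) scale does not remove. None of the 7 called members changed direction in the alternatives run, while the members' median turned from -0.01 to above 0 under both of those scalings and in libraries 4 and 5 alone (0.12), and stayed below 0 in libraries 1 to 3 (-0.12). Leaving out WT library 2, KI library 2 or KI library 3 gave member medians of 0.01, 0.00 and 0.01.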
